A study of Mus musculus with 18 samples.

Results

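A set of 10 circadian clock genes was followed in mouse bone marrow-derived macrophages: Per1, Per2, Per3, Cry1, Cry2, Nr1d1, Nr1d2, Tef, Ciart and Clock. They were taken by symbol from the deposited table, and all 10 of 10 were found among its 21380 genes and passed the filter that left 14288 genes for testing. The libraries came from wild-type (WT) and Ldha knockout (KO) mice. Ldha encodes the A chain of lactate dehydrogenase. Marrow flushed from femurs was cultured for 7 days with 15% serum and 30 ng/mL of macrophage colony-stimulating factor. The cells were then left untreated, or given recombinant mouse interferon gamma (IFN-gamma) or recombinant mouse interleukin 4 (IL-4) for 24 h to polarize them towards the states known as M1 and M2. The 6 groups of genotype and treatment held 3 libraries each, and each of the 6 animals, told apart by the codes in the labels, gave a library to each of the 3 treatments. The sources used here do not give the strain, the age, the way Ldha was deleted, the driver of any recombinase or the time of day of harvest. RNA was taken at a fixed treatment time, so levels and not rhythms were measured.

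The mammalian clock is a loop of transcription and feedback. CLOCK pairs with BMAL1 (the product of Arntl) on E-box sequences and switches on the Per and Cry genes, whose proteins return to the nucleus and repress CLOCK and BMAL1. Ciart encodes another repressor of that pair. In a second loop the nuclear receptors REV-ERB alpha (Nr1d1) and REV-ERB beta (Nr1d2) repress Arntl through sites that the ROR activators also bind. Tef encodes an activator of the PAR bZIP family, which with DBP and HLF binds D-box sequences that the repressor NFIL3 also binds. Macrophages hold a working clock of their own, and it is known for setting the daily timing of cytokine and chemokine genes.

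Promoter sequences are shown for 6 genes: Per1, Ciart and Cry1, which rose with IFN-gamma in both genotypes, Per3, which fell most, and Nr1d2 and Tef, whose responses differed between genotypes. Each spans 250 bases before to 50 bases after a RefSeq transcript start (GRCm38.p6), written 5′ to 3′ on the strand of the gene. Capitals mark matches, on either strand, to the E-box CACGTG, the E-prime-box CACGTT, the D-box TTATGTAA or TTACGTAA, the core AGGTCA or GGGTCA of ROR and REV-ERB elements or the CRE TGACGTCA, as far as they occur.
Per1, first start site, chr11:69098699-69098998, plus strand: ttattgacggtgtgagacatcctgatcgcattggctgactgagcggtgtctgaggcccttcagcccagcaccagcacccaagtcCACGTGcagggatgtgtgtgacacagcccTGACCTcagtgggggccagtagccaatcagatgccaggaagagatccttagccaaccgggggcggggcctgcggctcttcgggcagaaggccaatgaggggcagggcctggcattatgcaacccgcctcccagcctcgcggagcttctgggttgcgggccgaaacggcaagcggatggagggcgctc
Ciart, chr3:95882179-95882478, minus strand: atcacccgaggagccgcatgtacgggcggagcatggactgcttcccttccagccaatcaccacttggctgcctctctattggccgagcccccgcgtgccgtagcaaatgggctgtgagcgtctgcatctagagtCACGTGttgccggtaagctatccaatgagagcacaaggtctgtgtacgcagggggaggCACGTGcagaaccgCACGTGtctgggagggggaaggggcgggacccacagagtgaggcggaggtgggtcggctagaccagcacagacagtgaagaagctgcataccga
Cry1, chr10:85185005-85185304, minus strand: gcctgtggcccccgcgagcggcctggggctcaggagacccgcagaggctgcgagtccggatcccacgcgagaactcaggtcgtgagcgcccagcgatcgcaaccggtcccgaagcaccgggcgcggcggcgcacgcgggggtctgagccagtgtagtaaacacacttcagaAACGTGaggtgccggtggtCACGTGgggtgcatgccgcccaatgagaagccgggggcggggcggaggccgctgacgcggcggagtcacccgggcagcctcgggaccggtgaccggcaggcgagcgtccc
Per3, chr4:151044616-151044915, minus strand: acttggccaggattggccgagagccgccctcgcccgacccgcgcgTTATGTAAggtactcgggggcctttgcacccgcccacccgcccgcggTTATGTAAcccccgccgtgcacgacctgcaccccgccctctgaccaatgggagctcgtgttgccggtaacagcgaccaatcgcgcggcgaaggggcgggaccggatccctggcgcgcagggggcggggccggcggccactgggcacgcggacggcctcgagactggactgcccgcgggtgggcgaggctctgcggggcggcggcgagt
Nr1d2, chr14:18239057-18239356, minus strand: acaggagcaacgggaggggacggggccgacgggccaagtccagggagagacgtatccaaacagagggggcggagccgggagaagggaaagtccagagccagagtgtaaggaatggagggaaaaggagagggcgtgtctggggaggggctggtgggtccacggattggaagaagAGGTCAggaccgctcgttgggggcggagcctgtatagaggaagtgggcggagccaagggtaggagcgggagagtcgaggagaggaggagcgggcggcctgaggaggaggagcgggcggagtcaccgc
Tef, first start site, chr15:81802423-81802722, plus strand: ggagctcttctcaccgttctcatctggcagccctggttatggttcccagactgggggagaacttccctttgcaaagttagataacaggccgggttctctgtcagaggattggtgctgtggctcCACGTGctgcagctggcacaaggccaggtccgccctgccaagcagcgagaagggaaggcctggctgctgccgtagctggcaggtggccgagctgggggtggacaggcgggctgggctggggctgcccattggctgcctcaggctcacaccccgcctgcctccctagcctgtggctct

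The Ciart promoter held 3 E-boxes, which begin 116, 58 and 44 bases before the start site. The Cry1 promoter held an E-box that begins 60 bases before the start and an E-prime-box that begins 79 bases before it. At its first start site Per1 had an E-box (166 bases before) and a ROR element core on the other strand (137 bases before). Per3 carried the D-box TTATGTAA at 2 places, 205 and 158 bases before the start. Tef had an E-box 127 bases before its first start site and another 138 bases before its second, and Nr1d2 had the core AGGTCA 77 bases before its start. The Cry2 and Nr1d1 promoters, not printed, each held an E-prime-box. Among all 32851 promoters of this length in the same table, 7.15% held an E-box, 4.68% an E-prime-box, 1.06% a D-box, 16.3% AGGTCA, 13.7% GGGTCA and 1.79% the CRE. These matches are descriptions of letters and not of bound factors. The table had promoters for 9 of the 10 genes, Per2 being the other.

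Depth ran from 9.77 M reads in WT IL-4 replicate 2 to 49.5 M reads in WT IL-4 replicate 3, with a median of 30.9 M. Values below are normalized counts, that is, reads divided by a size factor per library. Without treatment Ldha stood at 11620 ± 796 in WT and 2327 ± 238 in KO libraries (SD, n = 3), and the KO libraries lay below the WT libraries in every treatment. Lyz2, which encodes lysozyme, was 631600 ± 64800 and 784 ± 92.2 in the same groups, and was likewise lower in KO libraries of every treatment. All 10 macrophage markers looked up were present, with summed levels of 289000 to 303000 (WT) and 278000 to 309000 (KO) without treatment. KO sums lay below WT sums with IFN-gamma (252000 to 267000 against 310000 to 336000) and with IL-4 (225000 to 245000 against 270000 to 295000). In KO against WT cells 0 of the 10 were called higher and 1 lower without treatment (1.98% of all genes tested were called). After IFN-gamma 3 were higher and 5 lower (27.9% of all genes), and after IL-4 0 higher and 4 lower (6.59%). Summed levels of 12 stromal markers (11 in the table, Lum at 0 or not listed) overlapped between genotypes. They ran from 312 to 839 (WT) and 702 to 2510 (KO) without treatment, from 235 to 449 and 399 to 1390 under IFN-gamma, and from 874 to 2070 and 1010 to 2420 under IL-4. Of the 9 stromal markers tested, 4 were called higher in KO cells with IFN-gamma (27.9% of all genes were called in either direction) and 0 in the other 2 genotype comparisons. Their median log2 difference was 1.70 untreated, 1.41 with IFN-gamma and 1.06 with IL-4. Of the dendritic cell markers, Flt3, Cd209a and Siglech were at 0 or not listed, while the other 3 summed to 1270 to 2490 in WT and 830 to 994 in KO cells with IFN-gamma, against 7.79 to 26.0 without treatment, and with IL-4 to 16.4 to 41.5 in WT and 62.7 to 81.9 in KO cells. B cell markers summed higher in KO than WT libraries without overlap, at 39.8 to 60.6 against 22.4 to 37.9 untreated, 20.2 to 29.6 against 7.89 to 13.0 with IFN-gamma and 30.2 to 51.2 against 13.1 to 25.1 with IL-4. The neutrophil markers S100a9, Ly6g, Mpo and Elane (4 of 7) and all 4 T or NK cell markers were at 0 or not listed. With IFN-gamma the neutrophil sum was 29.4 to 63.5 in KO and 0.982 to 4.72 in WT libraries. Only 1 of the 7 neutrophil markers was tested, and with IFN-gamma it was called higher in KO cells (log2 difference 4.77, where 27.9% of all genes were called). The part of these markers in the clock gene results was not tested, and in bulk RNA fewer cells of a type and less RNA per cell cannot be told apart.

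Compared per kilobase of exon, the 10 genes stood in a wide order in WT untreated cells. Nr1d2 was highest at 325.5 ± 23.8 normalized counts per kilobase, followed by Tef at 295.0 ± 10.1 and Per1 at 184.1 ± 13.7, with no overlap between these neighbours. Clock (130.3 ± 7.35) and Cry1 (126.0 ± 6.35) overlapped each other. So did the next neighbours, Cry2 (41.3 ± 2.39), Nr1d1 (40.6 ± 3.36) and Per3 (40.1 ± 2.57), ahead of Per2 (27.2 ± 2.07) and Ciart (11.03 ± 3.59). In KO untreated cells the order was the same but for Cry1 (134.2 ± 6.5), which stood above Clock (124.6 ± 2.67) without overlap. With IFN-gamma Per1 moved to the top in WT cells at 505.1 ± 145.0 per kilobase, apart from Nr1d2 at 217.2 ± 11.5, whereas in KO cells Per1 (337.7 ± 24.9) and Nr1d2 (333.6 ± 34.2) overlapped. Per3 was lowest with IFN-gamma in both genotypes, at 12.7 ± 3.36 in WT and 11.4 ± 1.91 in KO cells. With IL-4 the top 4 genes were Per1, Tef, Cry1 and Nr1d2 in WT and Tef, Nr1d2, Cry1 and Per1 in KO cells, each overlapping its neighbour within that set.

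**Figure D1:**
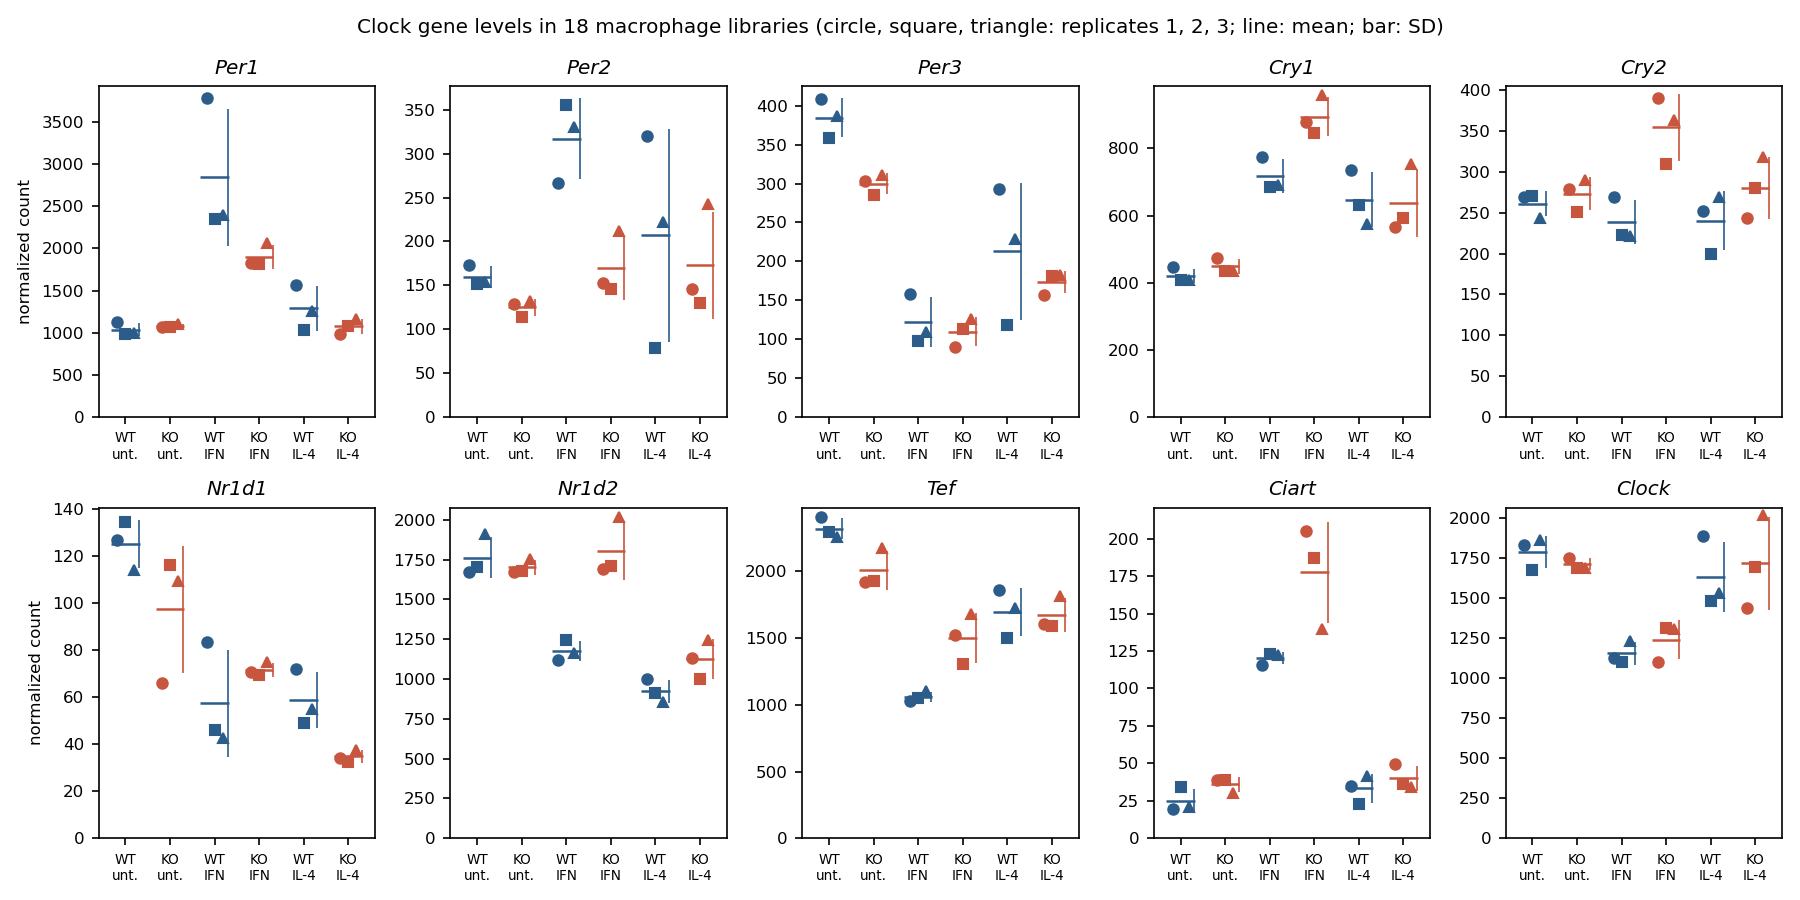
Normalized counts of the 10 clock genes (vertical axis, linear, from 0) in 18 libraries by group (horizontal axis), with WT in blue, KO in red, a marker shape for each replicate, a line at the group mean and a bar for the SD. Ciart with IFN-gamma lay at 115.9 or above in every library, and no library without IFN-gamma was above 49.4.

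How many of the genes changed was counted with limma on log2 values of the normalized count plus 1, with Benjamini-Hochberg adjustment over all 14288 genes and a call at an adjusted p under 0.05. IFN-gamma moved most of them. In WT cells 4 were higher and 5 lower than untreated (9 of 10, where 62.4% of all genes tested were called), and in KO cells 4 were higher and 3 lower (7 of 10, against 55.8%). Their median absolute log2 change was 1.05 in WT and 0.446 in KO cells, beside 0.551 and 0.469 over all genes tested. With IL-4, 1 was higher and 4 lower in each genotype (5 of 10), where 30.3% of genes were called in WT and 30.2% in KO cells. These shares are read against 10 genes only, so a difference of 1 gene is 10 percentage points. They are descriptions, since the genes were chosen with earlier results of these data known. The IFN-gamma and IL-4 responses of a genotype share its untreated libraries.

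Between genotypes, no clock gene was called in untreated cells (0 of 10, with 1.98% of all genes called) or in IL-4 cells (0 of 10, with 6.59%). At an unadjusted p under 0.05 in limma, 2 of the 10 passed in untreated cells, where 1702 of all 14288 genes did. In IL-4 cells 2 of the 10 passed, where 3121 of 14288 did. With edgeR and DESeq2 on the recovered reads, 0 of the 10 were called in each of these comparisons. In a fit of the untreated libraries alone, 1 gene was called (Per3, log2 change -0.36, adjusted p = 0.0383). With IFN-gamma, 4 genes were higher in KO cells (Cry1, Cry2, Nr1d2, Tef) and 1 was lower (Per1). That made 5 of 10, where 27.9% of all genes were called. The count was 3 without KO IFN-gamma replicate 1, 6 with edgeR and 7 with DESeq2. The 27.9% belongs to the main limma fit and is not the background of these 3 other fits, whose shares over all genes are not given here. The median log2 difference of the 10 genes with IFN-gamma was 0.35, beside 0.01 over all genes tested and 0.02 over the 29 other clock genes tested. Since the 10 genes were chosen with earlier results of these data known, these contrasts with all genes are descriptions and not tests. The IFN-gamma response itself differed between genotypes for 2 of 10, Nr1d2 and Tef, where 9.15% of genes did. This fit did not pair the libraries of an animal. With the animal as a block the Per1 responses differed too (adjusted p = 0.00572), and more of all genes were called. Per1 also passed with DESeq2 (adjusted p = 0.0421). The IL-4 response differed for 0 of 10 in limma, where 0.007% did, and for 0 of 10 with edgeR or DESeq2. At an unadjusted p under 0.05 in limma 1 of 10 passed, where 774 of 14288 genes did.

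**Figure D2:**
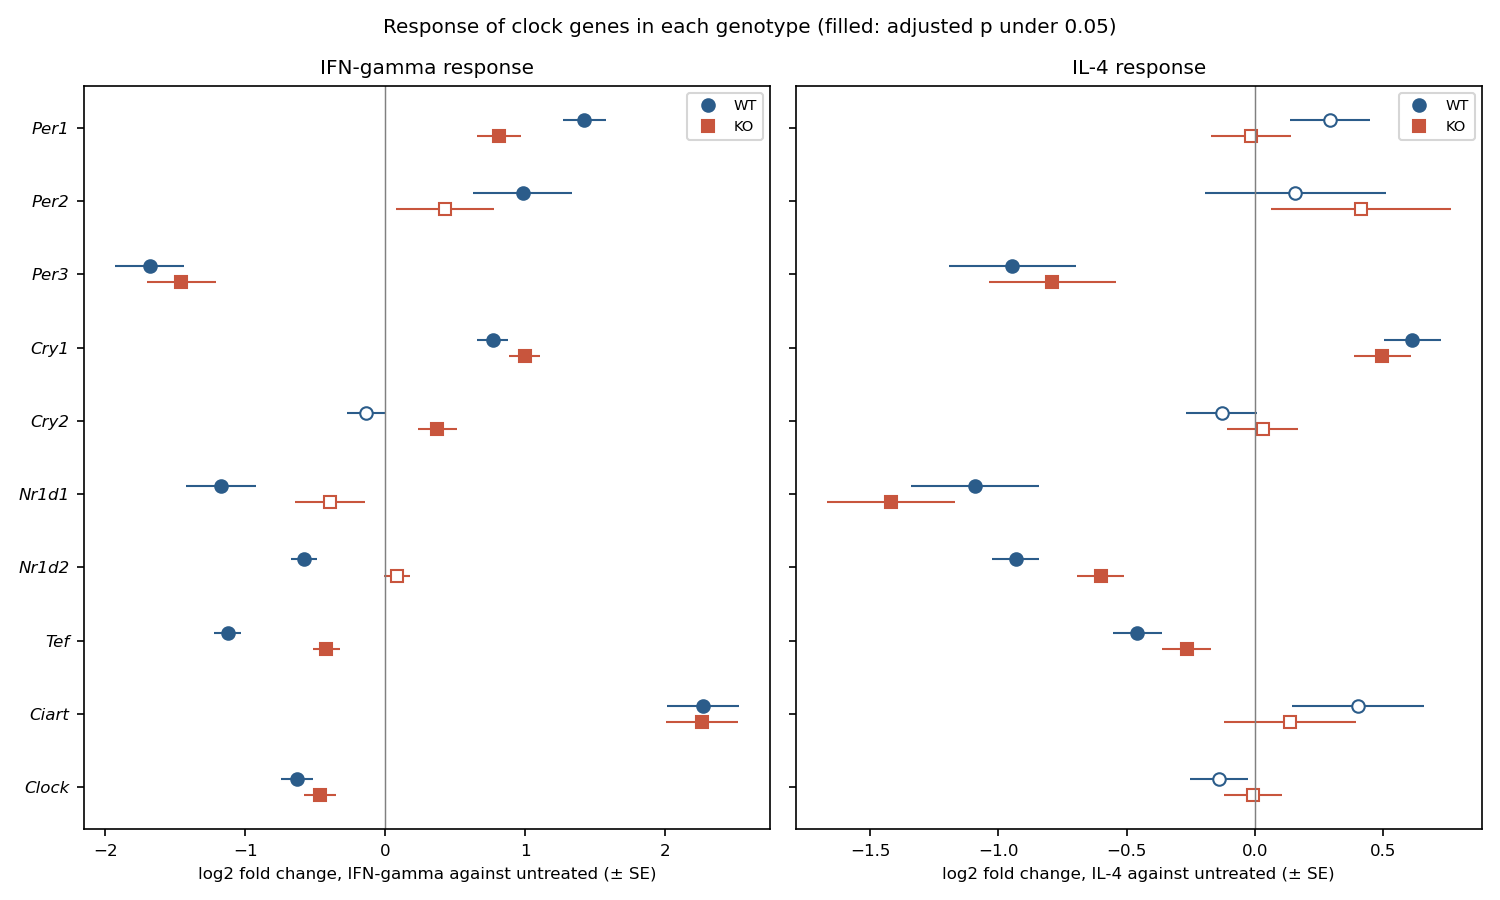
Log2 fold change against untreated (horizontal axis, with SE as bars) for each clock gene (vertical axis) after IFN-gamma (left) and IL-4 (right), with WT as blue circles and KO as red squares, filled where limma's adjusted p was under 0.05. Ciart had the largest rise with IFN-gamma of the 10 genes (2.27 in WT, 2.26 in KO) and Per3 the largest fall (-1.68 and -1.46).

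Per1 encodes a PERIOD protein that is known to be induced quickly by outside signals as well as by the clock (ENSMUSG00000020893.17, chromosome 11, 69095217 to 69109960, plus strand). Its normalized counts were 1125, 985 and 999 in WT and 1072, 1067 and 1108 in KO untreated libraries. With IFN-gamma they were 3788, 2353 and 2393 in WT and 1827, 1815 and 2064 in KO libraries. Every IFN-gamma library lay above every untreated library, and all 3 KO libraries lay below the lowest WT library. Per1 rose by 1.42 ± 0.16 on the log2 scale in WT cells (SE, adjusted p = 3.49e-07) and by 0.81 ± 0.16 in KO cells (adjusted p = 0.000247). The KO level with IFN-gamma was lower by -0.55 ± 0.16 (adjusted p = 0.0145). WT IFN-gamma replicate 1 stood far above its group, and without it the difference was -0.32 (adjusted p = 0.0817). It also missed the threshold without KO IFN-gamma replicate 1 (-0.52, adjusted p = 0.0509) and in a fit of these 6 libraries alone (adjusted p = 0.0668). The difference between the responses was -0.61 ± 0.22 (adjusted p = 0.0956). It passed with the animal as a block (-0.61, adjusted p = 0.00572) and with DESeq2 (-0.64, adjusted p = 0.0421), and it was -0.39 (adjusted p = 0.191) without WT IFN-gamma replicate 1.

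With IL-4, Per1 was 1569, 1036 and 1258 in WT and 983, 1078 and 1163 in KO libraries. WT replicates 1 and 3 were above all untreated libraries, and replicate 2 was among them. The response was 0.29 ± 0.16 in WT cells (adjusted p = 0.167), and it passed with the animal as a block (0.29, adjusted p = 0.0208). Leaving out WT IL-4 replicate 2 also gave a call (0.44, adjusted p = 0.0484). In KO cells the Per1 response to IL-4 was -0.01 ± 0.16 (adjusted p = 0.963). KO and WT overlapped (-0.24 ± 0.16, adjusted p = 0.384).

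Per2 encodes the PERIOD protein whose loss disturbs the clock most (ENSMUSG00000055866.9, chromosome 1, 91415982 to 91459324, minus strand). It had 173, 152 and 153.5 counts in WT and 129, 113.5 and 132 in KO untreated libraries, and 266, 355 and 330 in WT and 152, 145.5 and 212 in KO libraries with IFN-gamma. All 3 KO libraries were lower than all 3 WT libraries in both conditions. Per2 rose by 0.98 ± 0.35 in WT cells (adjusted p = 0.0222). The call was lost when WT IFN-gamma replicate 2 or 3, or WT untreated replicate 2 or 3, was left out (adjusted p = 0.067, 0.0546, 0.0572 and 0.0551). In KO cells the Per2 change was 0.42 ± 0.35 (adjusted p = 0.319). The genotype difference with IFN-gamma was -0.91 ± 0.35 and missed the threshold (adjusted p = 0.0636), while edgeR (-0.88, adjusted p = 0.0329), DESeq2 (-0.89, adjusted p = 0.0153) and a fit of these 6 libraries alone (adjusted p = 0.0156) called it. In untreated cells it was -0.35 ± 0.35 (adjusted p = 0.816).

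Per2 had the widest range of the 10 with IL-4. It had 320.0, 78.7 and 223 counts in WT and 146, 129.5 and 242 in KO libraries, a range over which the genotypes overlapped. The lowest value came from WT IL-4 replicate 2, the shallowest library, in which 24 reads of Per2 were counted. The response was 0.16 ± 0.35 in WT (adjusted p = 0.769) and 0.41 ± 0.35 in KO cells (adjusted p = 0.417). Leaving out WT IL-4 replicate 2 gave a Per2 response of 0.74 in WT cells (adjusted p = 0.028), and leaving out replicate 1 gave -0.26 (adjusted p = 0.573).

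Per3, a PERIOD gene that is less needed for the core loop (ENSMUSG00000028957.12, chromosome 4, 151003652 to 151044665, minus strand), fell with IFN-gamma in both genotypes, where Per1 rose in both and Per2 rose in WT cells. It had 408, 359 and 387 counts in WT and 303, 286 and 311 in KO untreated libraries, and with IFN-gamma 158, 97.0 and 110 in WT and 89.8, 113 and 126 in KO libraries. Every IFN-gamma library lay below every untreated one. Per3 fell by 1.68 ± 0.25 in WT (adjusted p = 1.16e-05) and by 1.46 ± 0.25 in KO cells (adjusted p = 6.81e-05). With IL-4 it had 293, 118 and 228 counts in WT and 157, 181 and 183 in KO libraries, again all below the untreated libraries of the same genotype. The IL-4 response of Per3 was -0.95 ± 0.25 in WT (adjusted p = 0.00715) and -0.79 ± 0.25 in KO cells (adjusted p = 0.0213). In WT cells it was -0.57 (adjusted p = 0.032) without WT IL-4 replicate 2, and a fit of these 6 libraries alone did not call it (adjusted p = 0.0654). In KO cells the call was lost without KO IL-4 replicate 1, KO untreated replicate 1 or KO untreated replicate 3 (adjusted p = 0.0752, 0.0565 and 0.0629).

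In untreated cells Per3 was lower in all 3 KO libraries than in any WT library, by -0.36 ± 0.25 (adjusted p = 0.673). With IFN-gamma the genotypes overlapped (-0.13 ± 0.25, adjusted p = 0.736), as they did with IL-4 (-0.20 ± 0.25, adjusted p = 0.683). The Per3 responses did not pass a test of their difference between genotypes (0.22 ± 0.35 with IFN-gamma, adjusted p = 0.756, and 0.16 ± 0.35 with IL-4, adjusted p = 0.999).

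Cry1 encodes a cryptochrome, the stronger repressor of CLOCK and BMAL1 of its family (ENSMUSG00000020038.10, chromosome 10, 85131700 to 85185064, minus strand). It was the 1 clock gene of the 10 that rose with both cytokines in both genotypes. Untreated libraries had 445, 409 and 408 counts in WT and 473.5, 436 and 436 in KO cells. With IFN-gamma the counts were 776, 684 and 692 in WT and 879, 847 and 958 in KO libraries. With IL-4 they were 735, 632.8 and 574.5 in WT and 567, 593 and 753 in KO libraries. Every treated library lay above every untreated library. With IFN-gamma Cry1 rose by 0.77 ± 0.11 in WT (adjusted p = 9.95e-06) and 0.99 ± 0.11 in KO cells (adjusted p = 5.44e-07), and with IL-4 by 0.61 ± 0.11 (adjusted p = 0.000369) and 0.50 ± 0.11 (adjusted p = 0.00216). With IFN-gamma the KO libraries also lay above the WT libraries, by 0.32 ± 0.11 (adjusted p = 0.0401). That genotype call was weak. It was lost without any KO IFN-gamma replicate (adjusted p = 0.0782, 0.053 and 0.135 without replicates 1, 2 and 3), without WT IFN-gamma replicate 2 or 3 (adjusted p = 0.112 and 0.104) and with no filter on low values (adjusted p = 0.0531). The difference between the Cry1 responses to IFN-gamma was 0.23 ± 0.16 (adjusted p = 0.412).

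Cry2, the other cryptochrome (ENSMUSG00000068742.11, chromosome 2, 92403646 to 92434043, minus strand), was 269, 271 and 244 in WT and 279, 251 and 289.9 in KO untreated libraries. With IFN-gamma it was 269, 223 and 222 in WT and 390.2, 310.0 and 363.5 in KO libraries. The KO libraries lay above all WT libraries and above all untreated ones, while WT libraries with and without IFN-gamma overlapped. Cry2 was higher by 0.57 ± 0.14 in KO than in WT cells with IFN-gamma (adjusted p = 0.00528), a call that no left-out library changed. Its response was -0.14 ± 0.14 in WT (adjusted p = 0.403) and 0.37 ± 0.14 in KO cells (adjusted p = 0.0301). The rise in KO cells was not called without KO IFN-gamma replicate 1 or 3 or KO untreated replicate 1 or 2 (adjusted p = 0.118, 0.0785, 0.0548 and 0.112). The Cry2 responses differed by 0.51 ± 0.20 (adjusted p = 0.12). With IL-4, Cry2 averaged 240.4 ± 35.9 in WT and 280.3 ± 37.6 in KO cells, which overlapped, and it passed in no IL-4 comparison. Its exons overlap those of D930015M05Rik on the opposite strand, and no source used here gives the strand setting of the counting, so its level is uncertain to that extent.

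Nr1d1 encodes REV-ERB alpha, the heme-sensing nuclear receptor that represses Arntl and many inflammatory genes (ENSMUSG00000020889.11, chromosome 11, 98767932 to 98775333, minus strand). It had 127, 134 and 114 counts in WT and 66.1, 116 and 109 in KO untreated libraries, where KO replicate 1 stood apart below. With IFN-gamma the counts were 83.5, 46.2 and 42.5 in WT and 70.5, 69.3 and 74.8 in KO libraries. WT cells with IFN-gamma lay below WT untreated cells, and the genotypes overlapped since WT IFN-gamma replicate 1 was above all KO libraries. Nr1d1 fell by 1.17 ± 0.25 in WT cells (adjusted p = 0.000569), and its change in KO cells was -0.40 ± 0.25 (adjusted p = 0.192). Without KO untreated replicate 1 the change in KO cells was -0.65 and called (adjusted p = 0.0428). The difference between the responses, 0.78 ± 0.35 (adjusted p = 0.195), passed only without WT IFN-gamma replicate 1 among the libraries left out in turn (1.08, adjusted p = 0.0415). The same held for KO against WT with IFN-gamma, at 0.38 ± 0.25 (adjusted p = 0.286) with it and 0.68 without it (adjusted p = 0.0458).

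With IL-4, Nr1d1 had 72.1, 49.2 and 55.0 counts in WT and 34.3, 32.4 and 37.6 in KO libraries, its lowest group. The 3 KO libraries lay below the 3 WT libraries, which lay below all WT untreated libraries. Nr1d1 fell by 1.09 ± 0.25 in WT (adjusted p = 0.0029) and by 1.42 ± 0.25 in KO cells (adjusted p = 0.000282). The genotype difference with IL-4 was -0.73 ± 0.25 (adjusted p = 0.0938) and did not pass. Exons of Nr1d1 overlap those of Thra on the opposite strand, which makes its counts uncertain without the strand setting.

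Nr1d2, the gene of REV-ERB beta (ENSMUSG00000021775.11, chromosome 14, 18204054 to 18239127, minus strand), gave the clearest genotype difference of the 10 by adjusted p. Untreated libraries had 1672, 1701 and 1908 counts in WT and 1671, 1678 and 1754 in KO cells, which overlapped (-0.05 ± 0.09, adjusted p = 0.932). With IFN-gamma the counts were 1121, 1242 and 1162 in WT and 1688, 1708 and 2018 in KO libraries. WT libraries fell below every untreated library, and KO libraries stayed within or above the untreated range. The response was -0.58 ± 0.09 in WT (adjusted p = 2.98e-05) and 0.08 ± 0.09 in KO cells (adjusted p = 0.481), and these differed by 0.66 ± 0.13 (adjusted p = 0.00423). KO exceeded WT with IFN-gamma by 0.62 ± 0.09, or 1.53-fold (adjusted p = 0.000119). No left-out library changed these calls.

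With IL-4, Nr1d2 fell in both genotypes, to 998, 915 and 853 in WT and 1131, 998.5 and 1246 in KO libraries, all below the untreated ones. The falls were 0.93 ± 0.09 in WT (log2 change -0.93, adjusted p = 6.58e-07) and 0.60 ± 0.09 in KO cells (log2 change -0.60, adjusted p = 7.16e-05). The KO libraries lay just above the highest WT library, 998.5 against 998.4, and the difference of 0.28 ± 0.09 did not pass (adjusted p = 0.0768). It passed without KO IL-4 replicate 2 (0.37, adjusted p = 0.0401). The IL-4 responses of Nr1d2 differed by 0.33 ± 0.13 (adjusted p = 0.8).

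Tef, the PAR bZIP activator (ENSMUSG00000022389.15, chromosome 15, 81802421 to 81826863, plus strand), had 2410, 2296 and 2257 counts in WT and 1924, 1926 and 2174 in KO untreated libraries. With IFN-gamma it had 1032, 1048 and 1104 in WT and 1523, 1307 and 1681 in KO libraries. All 3 KO libraries lay above the WT libraries with IFN-gamma, whereas in untreated cells they lay below them (-0.21 ± 0.09, adjusted p = 0.382). Tef fell by 1.13 ± 0.09 in WT (adjusted p = 1.11e-08) and by 0.42 ± 0.09 in KO cells (adjusted p = 0.00103). The responses differed by 0.71 ± 0.13 (adjusted p = 0.00313), and KO exceeded WT with IFN-gamma by 0.50 ± 0.09, or 1.41-fold (adjusted p = 0.000978). No left-out library changed these 4 calls.

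With IL-4, Tef had 1859, 1502 and 1725 counts in WT and 1607, 1589 and 1817 in KO libraries, which overlapped (-0.02 ± 0.09, adjusted p = 0.938) and lay below the untreated libraries of their genotype. It fell by 0.46 ± 0.09 in WT (adjusted p = 0.00125) and by 0.27 ± 0.09 in KO cells (adjusted p = 0.0421). The call in KO cells was lost without KO IL-4 replicate 1 or 2 or any KO untreated replicate (adjusted p = 0.126, 0.139, 0.0587, 0.0622 and 0.179) and with no filter on low values (adjusted p = 0.0586). Exons of Tef overlap those of Gm17597 on the opposite strand.

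Ciart encodes CHRONO, a repressor that binds BMAL1 (ENSMUSG00000038550.10, chromosome 3, 95878503 to 95882251, minus strand). It was the lowest of the 10 in untreated cells, with 19.5, 34.3 and 21.1 counts in WT and 38.9, 39.0 and 30.2 in KO libraries. With IFN-gamma it had 116, 123 and 123 in WT and 205, 187 and 140.0 in KO libraries, and all 3 KO libraries were above all WT libraries. Ciart rose by 2.27 ± 0.26 in WT (4.82-fold, adjusted p = 5.22e-07) and by 2.26 ± 0.26 in KO cells (4.79-fold, adjusted p = 6.81e-07). The genotype difference with IFN-gamma was 0.54 ± 0.26 (adjusted p = 0.131) and was called with DESeq2 (0.56, adjusted p = 0.0401). The IFN-gamma responses of Ciart differed by -0.01 ± 0.36 (adjusted p = 0.992). With IL-4 it had 34.9, 22.9 and 41.9 counts in WT and 49.4, 36.6 and 34.0 in KO libraries, overlapping with untreated cells in each genotype (0.40 ± 0.26 in WT, adjusted p = 0.252, and 0.14 ± 0.26 in KO, adjusted p = 0.74).

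Clock, the partner of BMAL1 (ENSMUSG00000029238.11, chromosome 5, 76209868 to 76304792, minus strand), had 1829, 1674 and 1864 counts in WT and 1753, 1691 and 1688 in KO untreated libraries. With IFN-gamma it had 1125, 1103 and 1235 in WT and 1099, 1313 and 1309 in KO libraries, below every untreated library. It fell by 0.63 ± 0.11 in WT (adjusted p = 9.84e-05) and by 0.47 ± 0.11 in KO cells (adjusted p = 0.00182), and no left-out library changed these calls. With IL-4 it ranged from 1485 to 1885 in WT and from 1440 to 2019 in KO libraries, which overlapped with the untreated libraries. Clock passed in no comparison of genotypes (0.10 ± 0.11 with IFN-gamma, adjusted p = 0.551).

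**Figure D3:**
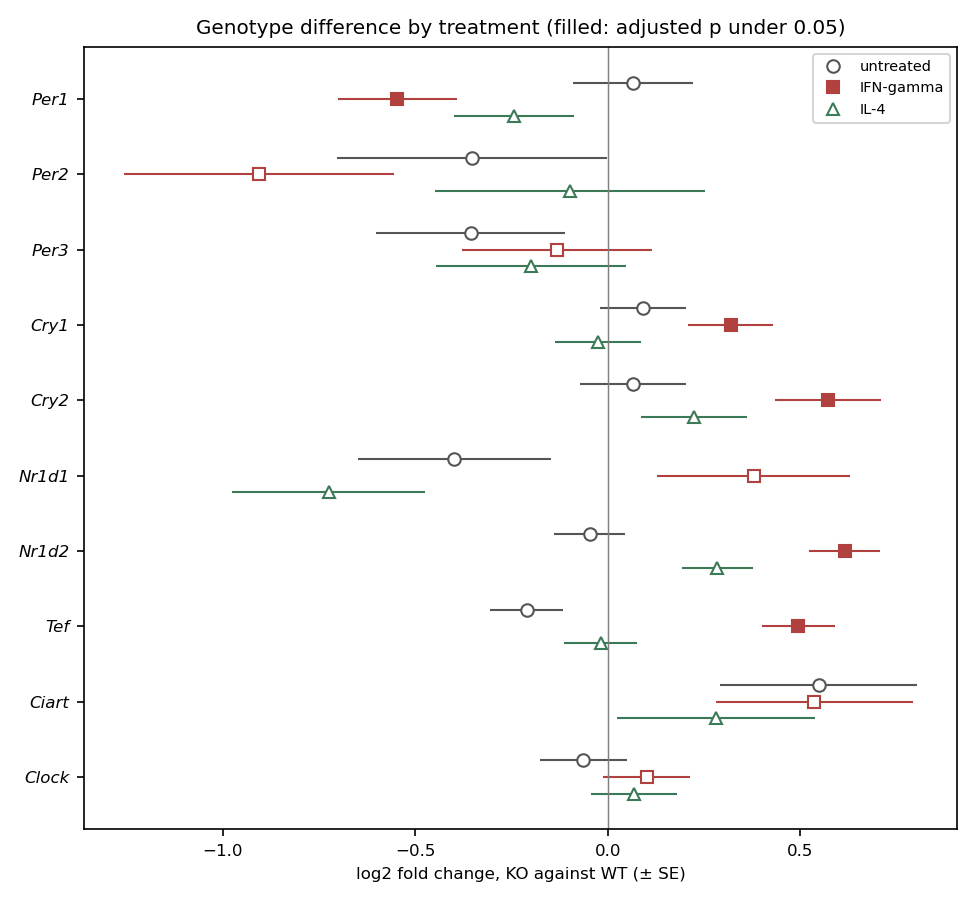
Log2 fold change of KO against WT (horizontal axis, with SE as bars) for each clock gene (vertical axis) in untreated (circles), IFN-gamma (squares) and IL-4 cells (triangles), filled where limma's adjusted p was under 0.05. Filled points occur only among the IFN-gamma squares, with Per1 at -0.55 on the lower side and Cry1, Cry2, Nr1d2 and Tef at 0.32 to 0.62 on the higher side. Over all genes tested, 27.9% were called with IFN-gamma, 1.98% untreated and 6.59% with IL-4.

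Other genes of the clock were taken from a list of 32, of which 29 were tested. Hlf (0 to 1.70 counts as group means) did not pass the filter, and the other two are not analysed here. With IFN-gamma 10 were higher and 11 lower in WT cells (62.4% of all genes were called) and 10 higher and 7 lower in KO cells (55.8%). With IL-4 5 were higher and 5 lower in WT (30.3%) and 7 higher and 7 lower in KO cells (30.2%). Comparing KO with WT, 0 were higher and 1 lower without treatment (1.98% of all genes), 6 higher and 5 lower after IFN-gamma (27.9%), and 2 higher and 1 lower after IL-4 (6.59%). The median log2 difference with IFN-gamma was 0.02, beside 0.01 over all genes tested.

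Among the transcription factors, Arntl passed with IL-4 and not with IFN-gamma. Untreated means were 270.1 ± 10.8 (WT) and 300.1 ± 22.0 (KO), IFN-gamma means 277.9 ± 22.1 and 281.9 ± 13.4, and IL-4 means 364.6 ± 49.6 and 407.5 ± 18.2. Its IFN-gamma change was 0.04 ± 0.11 in WT (adjusted p = 0.775) and -0.09 ± 0.11 in KO cells (adjusted p = 0.505). The rise of Arntl with IL-4 was 0.42 ± 0.11 in WT (adjusted p = 0.00586) and 0.44 ± 0.11 in KO cells (adjusted p = 0.00425). Nr1d1 and Nr1d2 were called lower in these 2 comparisons, and also in WT cells with IFN-gamma, where Arntl was not called. Arntl passed in no comparison of genotypes (0.17 ± 0.11 with IL-4, adjusted p = 0.386). Npas2, which can stand in for CLOCK, fell with IFN-gamma from 177 ± 37.2 to 4.501 ± 3.95 in WT cells (-5.27 ± 0.36, adjusted p = 8.28e-10) and from 226.5 ± 21.4 to 16.25 ± 2.72 in KO cells (-3.73 ± 0.36, adjusted p = 1.06e-07). The WT libraries with IFN-gamma held 9, 1 and 3 reads of Npas2, so counting error is large there. KO exceeded WT by 1.91 ± 0.36 (adjusted p = 0.000975).

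Dbp, the PAR bZIP relative of Tef and a standard readout of CLOCK and BMAL1, was the 1 gene of these 29 called between genotypes in untreated cells. It had 620, 556 and 572 counts in WT and 242, 297 and 332 in KO libraries, which did not overlap (-1.01 ± 0.22, adjusted p = 0.0218). With IL-4 Dbp had 348, 308 and 291 in WT and 165, 180 and 152 in KO libraries (-0.93 ± 0.22, adjusted p = 0.0188). With IFN-gamma it had 235, 106 and 117 in WT and 126, 95.3 and 133 in KO libraries, and the genotypes overlapped (-0.28 ± 0.22, adjusted p = 0.376). The untreated call of Dbp was lost without KO untreated replicate 1 or 2 or any WT untreated replicate (adjusted p = 0.0597 to 0.14), and the IL-4 call without KO IL-4 replicate 1 or 3 or WT IL-4 replicate 1 (adjusted p = 0.0525 to 0.0571). Dbp fell with IFN-gamma by 2.02 ± 0.22 in WT (adjusted p = 3.97e-07) and 1.29 ± 0.22 in KO cells (adjusted p = 8.65e-05). It fell with IL-4 by 0.88 ± 0.22 (adjusted p = 0.00572) and 0.80 ± 0.22 (adjusted p = 0.0111), the last not being called without KO untreated replicate 3 (adjusted p = 0.0553). The 2 IFN-gamma responses of Dbp differed by 0.73 ± 0.32 (adjusted p = 0.172), and by 1.08 without WT IFN-gamma replicate 1 (adjusted p = 0.00441).

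Nfil3, the repressor at D-boxes, moved opposite to Tef, Dbp and Per3 with IFN-gamma. It rose from 446 ± 78.5 to 5030 ± 1840 in WT cells (3.45 ± 0.22, adjusted p = 3.42e-10) and from 518 ± 109 to 2292 ± 515 in KO cells (2.14 ± 0.22, adjusted p = 2.4e-07). KO was lower than WT with IFN-gamma by -1.10 ± 0.22 (adjusted p = 0.00157), with 1846, 2173 and 2856 counts against 7155, 3899 and 4035. With IL-4 Nfil3 rose to 4259 ± 1030 in WT and 3317 ± 273 in KO cells (3.24 ± 0.22, adjusted p = 9.11e-09, and 2.69 ± 0.22, adjusted p = 6.36e-08). Bhlhe41 encodes DEC2, a repressor at E-boxes. It fell with IFN-gamma from 5606 ± 387 to 819 ± 296 in WT (-2.83 ± 0.19, adjusted p = 3.99e-10) and from 5875 ± 632 to 2697 ± 494 in KO cells (-1.14 ± 0.19, adjusted p = 4.75e-05), and KO exceeded WT by 1.76 ± 0.19 (adjusted p = 3.11e-06). Its relative Bhlhe40 (DEC1) rose with IL-4 from 744 ± 177 to 7930 ± 700 in WT (3.44 ± 0.31, adjusted p = 2.09e-07) and from 669 ± 88.9 to 8389 ± 605 in KO cells (3.65 ± 0.31, adjusted p = 8.63e-08).

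Cipc, which encodes an inhibitor that binds CLOCK, had opposite responses to IFN-gamma in the 2 genotypes. It went from 3453 ± 105 to 2597 ± 245 in WT (-0.41 ± 0.09, adjusted p = 0.000433) and from 3683 ± 370 to 5007 ± 281 in KO cells (0.45 ± 0.09, adjusted p = 0.000259). KO exceeded WT by 0.95 ± 0.09 with IFN-gamma (adjusted p = 6.28e-07) and by 0.34 ± 0.09 with IL-4 (adjusted p = 0.0242). The IL-4 call of Cipc was lost without KO IL-4 replicate 1 or 3 or WT IL-4 replicate 3 (adjusted p = 0.0996, 0.0669 and 0.0754) and in a fit of these 6 libraries alone (adjusted p = 0.166). Nono, which encodes a PER-binding RNA and DNA binding protein, was lower in KO cells with IFN-gamma by -0.41 ± 0.06 (4960 ± 211 against 6588 ± 47.3, adjusted p = 6e-05). Csnk1d, a kinase of PERIOD proteins, rose with IFN-gamma by 0.70 ± 0.06 in WT (adjusted p = 6.41e-09) and 0.49 ± 0.06 in KO cells (adjusted p = 8.15e-07), and with IL-4 by 0.41 ± 0.06 (adjusted p = 2.61e-05) and 0.31 ± 0.06 (adjusted p = 0.000356).

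Crebbp and Kat2b encode acetyltransferases that act with the clock factors. Crebbp was higher in KO cells with IFN-gamma by 0.49 ± 0.08 (1919 ± 98.2 against 1368 ± 148, adjusted p = 0.000337). Kat2b moved in opposite directions with the 2 cytokines. It rose with IFN-gamma by 0.83 ± 0.11 in WT (adjusted p = 2.94e-06) and 0.85 ± 0.11 in KO cells (adjusted p = 2.82e-06), and its IL-4 change was -0.48 ± 0.11 (adjusted p = 0.00249) and -0.53 ± 0.11 (adjusted p = 0.00108). Timeless, a gene of DNA replication forks with a reported tie to the clock, was lower in KO cells with IFN-gamma, at 373 ± 47.4 against 680.4 ± 105.0 (-0.86 ± 0.15, adjusted p = 0.000534). Fbxw11, an adaptor for the breakdown of PERIOD proteins, rose with IFN-gamma by 0.80 ± 0.07 in WT (adjusted p = 4.47e-08) and by 0.41 ± 0.07 in KO cells (adjusted p = 0.000158). Usp7, a deubiquitinase that acts on cryptochromes, rose in KO cells with IFN-gamma by 0.49 ± 0.08 (from 4079 ± 168 to 5742 ± 200, adjusted p = 5.98e-05). In WT cells the Usp7 mean also went up with IFN-gamma, from 3849 ± 105 to 5364 ± 653. Sirt1, a deacetylase tied to NAD levels, was higher in KO cells with IL-4 by 0.32 ± 0.08 (1334 ± 124 against 1063 ± 42.7, adjusted p = 0.0224). The Sirt1 call was lost without KO IL-4 replicate 1 or 3 or WT IL-4 replicate 1 or 3 (adjusted p = 0.0621, 0.0774, 0.0514 and 0.0636) and in a fit of these 6 libraries alone (adjusted p = 0.212).

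**Figure D4:**
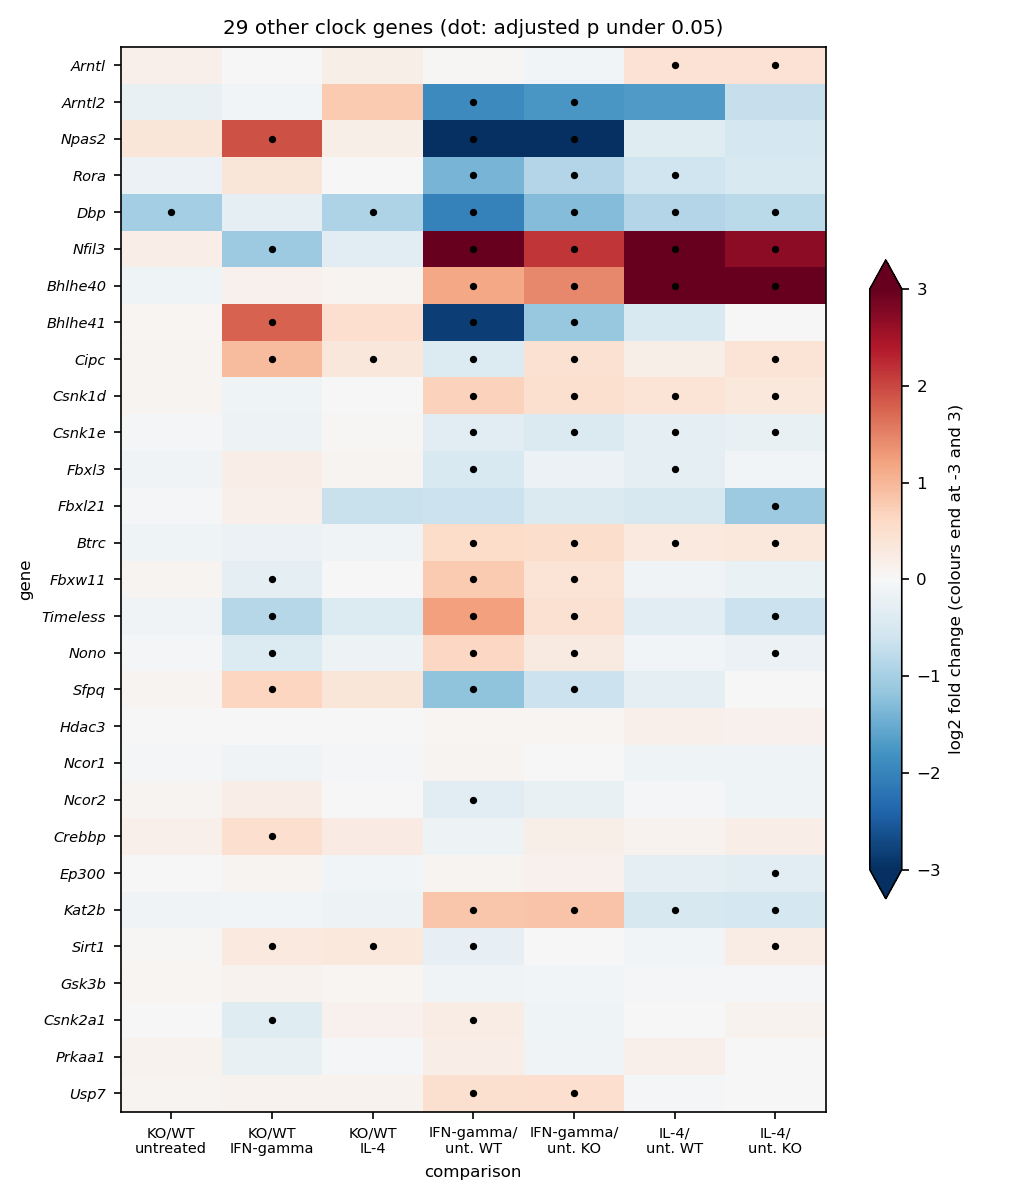
Log2 fold changes of the 29 other clock genes tested (rows) in 7 comparisons (columns), coloured from blue (lower) to red (higher) with colours ending at -3 and 3, and a dot where limma's adjusted p was under 0.05. In the column of KO against WT with IFN-gamma, 11 of the 29 genes carry a dot, against 1 in untreated and 3 in IL-4 cells. Of all genes tested, 27.9% were called in KO against WT with IFN-gamma, 1.98% untreated and 6.59% with IL-4.

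Genes that the clock is known to drive were followed in a list of 12, of which 11 were tested (Pdk4 did not pass the filter). With IFN-gamma 5 were higher and 2 lower in WT and 6 higher and 2 lower in KO cells, beside 62.4% and 55.8% of all genes called. With IL-4 6 were higher and 1 lower in each genotype, beside 30.3% (WT) and 30.2% (KO). Comparing KO with WT, 1 was higher and 1 lower without treatment (1.98% of all genes), 2 higher and 2 lower after IFN-gamma (27.9%), and 1 higher and 1 lower after IL-4 (6.59%). Nampt, the rate-limiting enzyme of NAD salvage, rose with IFN-gamma from 6703 ± 384 to 60870 ± 4480 in WT (3.18 ± 0.09, adjusted p = 7.8e-15) and from 6489 ± 398 to 54130 ± 4350 in KO cells (3.06 ± 0.09, adjusted p = 1.34e-14). Usp2, a ubiquitin protease gene driven through E-boxes, had 37.3, 33.8 and 57.8 counts in WT and 149, 119.5 and 95.7 in KO libraries with IFN-gamma (1.49 ± 0.25, adjusted p = 0.000319). Por, which encodes the reductase that feeds electrons to cytochrome P450 enzymes, was 7163 ± 268 in WT and 11600 ± 1450 in KO cells with IFN-gamma (0.69 ± 0.08, adjusted p = 1.54e-05). Lpin1, a phosphatidate phosphatase gene, was lower in KO cells without treatment (823 ± 67.6 in WT, 572 ± 19.5 in KO, -0.52 ± 0.10, adjusted p = 0.00906). That Lpin1 call was lost without KO untreated replicate 3 (adjusted p = 0.0548) or WT untreated replicate 2 (adjusted p = 0.0751). With IL-4 Lpin1 was lower in KO cells too (-0.47 ± 0.10, adjusted p = 0.00868), though not in a fit of these 6 libraries alone (adjusted p = 0.137).

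Lpin1 moved in opposite directions with the 2 cytokines. It fell with IFN-gamma by 2.32 ± 0.10 in WT (adjusted p = 1.7e-12) and 1.87 ± 0.10 in KO cells (adjusted p = 3.49e-11), and it rose with IL-4 by 0.67 ± 0.10 (adjusted p = 5.66e-05) and 0.72 ± 0.10 (adjusted p = 2.48e-05). Cdkn1a, which encodes the cell cycle inhibitor p21, rose with IFN-gamma by 2.45 ± 0.19 in WT (adjusted p = 3.08e-09) and 1.84 ± 0.19 in KO cells (adjusted p = 1.69e-07). In untreated cells Cdkn1a was higher in KO by 0.79 ± 0.19 (adjusted p = 0.0348), a call lost without any 1 of the 6 untreated libraries (adjusted p = 0.0619 to 0.171). Wee1, the kinase that holds back mitosis, rose with IFN-gamma by 0.97 ± 0.15 in WT (adjusted p = 2.06e-05) and 0.78 ± 0.15 in KO cells (adjusted p = 0.000239), and Ppard, a nuclear receptor gene, by 1.35 ± 0.15 (adjusted p = 2.95e-07) and 1.08 ± 0.15 (adjusted p = 5.94e-06). Tsc22d3, the glucocorticoid-induced leucine zipper gene, rose with IL-4 by 0.77 ± 0.09 in WT (adjusted p = 6.03e-06) and 0.75 ± 0.09 in KO cells (adjusted p = 7.38e-06), and Klf9 by 1.54 ± 0.33 (adjusted p = 0.00167) and 1.95 ± 0.33 (adjusted p = 0.000175). Between genotypes with IFN-gamma, Gpcpd1 was lower in KO cells by -0.81 ± 0.15 (adjusted p = 0.000769). Tsc22d3 was lower by -0.29 ± 0.09 (adjusted p = 0.0295), which was not called when KO IFN-gamma replicate 2 (adjusted p = 0.132) or the first WT replicate with IFN-gamma (adjusted p = 0.137) was left out. A fit of the IFN-gamma libraries alone did not call this Tsc22d3 difference either (adjusted p = 0.0701). With IL-4 Usp2 was higher in KO cells by 0.88 ± 0.25 (adjusted p = 0.0443). That Usp2 call was lost without any KO IL-4 library and without WT IL-4 replicate 1 or 2 (adjusted p = 0.0518 to 0.166), with no filter (adjusted p = 0.0565), with edgeR (adjusted p = 0.0538) and in a fit of these 6 libraries alone (adjusted p = 0.255).

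A list of 4 genes reported to be repressed by REV-ERB proteins in macrophages was looked at beside Nr1d1 and Nr1d2. Cx3cr1, the fractalkine receptor, had 680.0, 741.5 and 786 counts in WT and 2495, 3068 and 2243 in KO untreated libraries (1.81 ± 0.36, adjusted p = 0.0106). The untreated call of Cx3cr1 was lost without KO untreated replicate 2 (adjusted p = 0.0548) or WT untreated replicate 2 (adjusted p = 0.0536). With IFN-gamma its mean was 13.2 ± 7.8 in WT and 38.5 ± 15.0 in KO cells (1.57 ± 0.36, adjusted p = 0.00368). That call missed the threshold in a fit of these 6 libraries alone (adjusted p = 0.0556). With IL-4 the means of Cx3cr1 were 32.5 ± 5.91 and 79.8 ± 31.3 (1.21 ± 0.36, adjusted p = 0.0542), a difference that edgeR (adjusted p = 0.0186) and DESeq2 (adjusted p = 0.000251) called. The response of Cx3cr1 to IFN-gamma was -5.86 ± 0.36 in WT and -6.10 ± 0.36 in KO cells, and its response to IL-4 was -4.47 ± 0.36 and -5.07 ± 0.36 (highest adjusted p of the 4 = 5.32e-08).

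Mmp9, a gelatinase gene, averaged 119 ± 25.1 (WT) and 48.1 ± 5.63 (KO) without treatment (-1.27 ± 0.34), which missed the threshold in limma (adjusted p = 0.0626) and was called with edgeR (adjusted p = 0.0364), with DESeq2 (adjusted p = 0.00338) and in a fit of these 6 libraries alone (adjusted p = 0.0145). The IFN-gamma responses of Mmp9 differed by 0.89 ± 0.47 (adjusted p = 0.278), and passed with the animal as a block (adjusted p = 0.0459). Mmp9 fell with IFN-gamma by 1.32 ± 0.34 in WT (adjusted p = 0.00243), and its change in KO cells was not called (adjusted p = 0.289). It rose with IL-4 by 1.31 ± 0.34 in WT (adjusted p = 0.00624) and 1.82 ± 0.34 in KO cells (adjusted p = 0.000405). Ccl2, a monocyte chemokine, rose with IFN-gamma from 213 ± 23.8 to 6662 ± 3450 in WT (4.79 ± 0.35, adjusted p = 1.89e-09) and from 164 ± 42.3 to 6467 ± 1000 in KO cells (5.31 ± 0.35, adjusted p = 5.98e-10). Il6 rose with IFN-gamma from 4.27 ± 2.22 to 246 (176 to 360.4) in WT (5.55 ± 0.69, adjusted p = 1.67e-06) and from 3.14 ± 1.27 to 197 ± 52.9 in KO cells (5.59 ± 0.69, adjusted p = 1.92e-06). With IL-4 Ccl2 rose too, to 714 ± 288 in WT (adjusted p = 0.00152) and 685 ± 62.2 in KO cells (adjusted p = 0.000188). Il6 rose with IL-4 to 44.7 (16.4 to 90.7) in WT (adjusted p = 0.00449) and 79.4 (14.1 to 179) in KO cells (adjusted p = 0.000533). Ccl2 and Il6 passed in no comparison of genotypes.

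Agreement among the 10 genes across libraries was examined as a description. Over the 18 libraries the 45 pairs had Pearson correlations from -0.86 (Ciart and Clock) to 0.84 (Per3 and Tef), with a median of 0.06 and 23 above 0. After subtraction of group means, 39 of 45 were above 0 (86.7%), the median was 0.44 and the highest was 0.86 (Per1 and Per3). Over all pairs of tested genes 50.4% were above 0 and the median was 0.00. Ciart was part of 5 of the 6 pairs below 0. The 18 libraries share animals and treatments and differ in depth, and the libraries at the ends were few. WT IL-4 replicate 1 (28.4 M reads) was the highest of its group for 8 of 10 genes and replicate 2, the shallowest library (9.77 M reads), the lowest for 8 of 10, while replicate 3, the deepest (49.5 M reads), was the highest for 2. KO IL-4 replicate 3 (49.0 M reads) was the highest for 9 of 10, and KO IFN-gamma replicate 3 (39.5 M reads) for 7 of 10. In WT untreated cells no library was the highest for more than 5. The part of depth in these deviations was not tested.

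**Figure D5:**
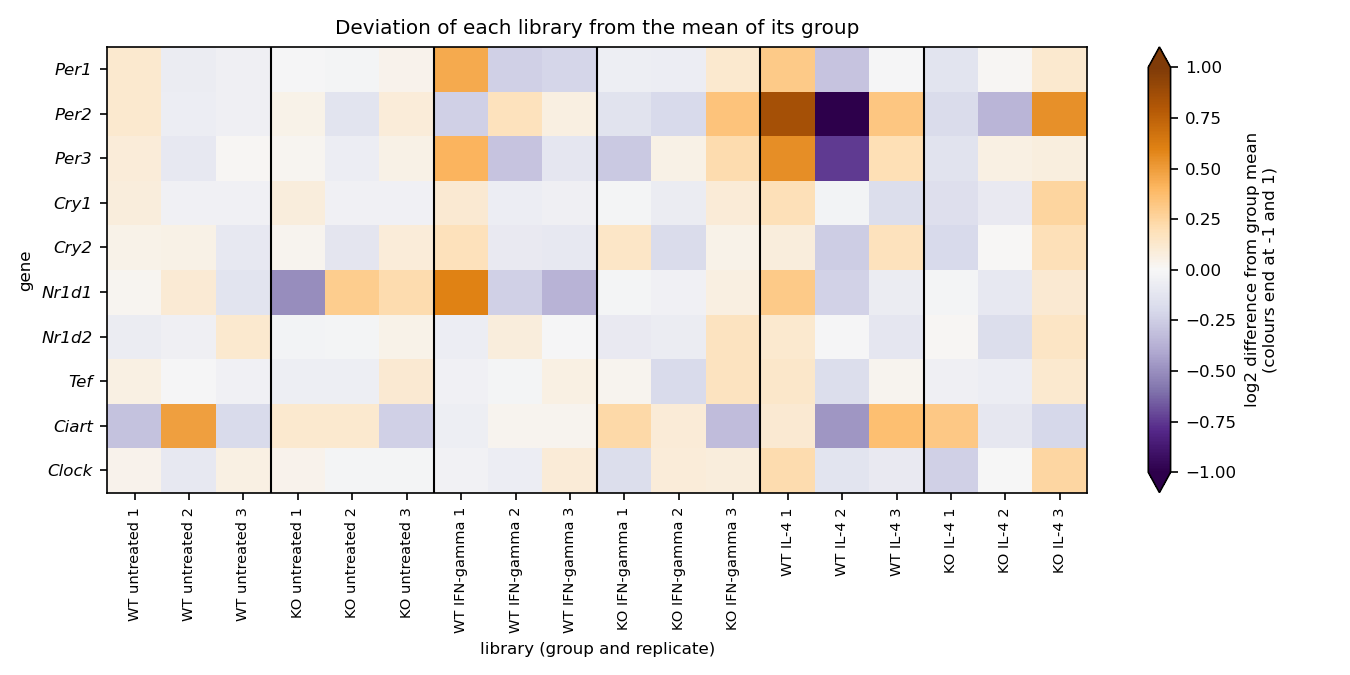
Log2 difference of each library (columns, 18) from the mean of its own group, for each clock gene (rows), coloured from purple (lower) to orange (higher) with colours ending at -1 and 1. The columns of WT IL-4 replicates 1 and 2 are coloured in opposite ways for most genes, led by Per2 with 320.0 and 78.7 normalized counts.

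By likeness of pattern over the 18 libraries (Pearson correlation of log2 values, with shared treatments in all), the gene closest to Per1 was Gpr132 (0.98), and the closest to Per2 was Hps4 (0.90). Grk4 was closest to Per3 (0.96), Inhba to Cry1 (0.98) and Wdtc1 to Cry2 (0.89). Nr1d1 was most like Rxrb (0.93), Nr1d2 like Brip1 (0.95) and Tef like Gdpd1 (0.95). Ciart was most like Hgs (0.98) and Clock like Bmpr2 (0.96).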

How the data were processed

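Poly A-selected RNA (directional kit) from 18 macrophage cultures was sequenced. Per the submitters' processing notes, reads were processed with STAR 2.5, HTSeq 0.6, DESeq2 and edgeR on GRCm38. The deposited table holds a signal per gene and library that the authors normalized. Within a library its values are whole multiples of a common step, as counts divided by a size factor are, and whole reads were recovered for 100% of values at a tolerance of 0.1. Recovered totals were 9.77 to 49.5 M reads, and precision is lower in shallower libraries. Genes at 10 or more in at least 3 libraries were kept (14288 of 21380). Log2 values (pseudocount 1, so the change of low genes is understated) were fitted with limma 3.58.1 in R 4.3.3 as 6 group means, and 9 comparisons were adjusted by the Benjamini-Hochberg method over all genes kept, with a call under 0.05. The fit was also run on simulated counts, with the same spread for all genes, no shared animals and no library apart from its group. That run cannot show how the fit behaves with the replicate differences of these data, and its outcome is not given here. No 2 replicates agreed within sampling noise (chi-square per gene 4.38 to 60.4). In WT cells with IFN-gamma the value was 54.7 and 60.4 for replicate 1 against replicates 2 and 3, and 4.38 between replicates 2 and 3. Replicate 1 thus stood apart from its group over all genes, and it enters every comparison that uses the WT IFN-gamma group. The WT IL-4 pairs had 42.0 to 60.0.

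Alternatives were pseudocounts of 0.5 and 5, no filter, a minimum mean of 50, factors computed as in TMM, edgeR 4.0.16 and DESeq2 1.42.0 on recovered reads, a fit of only the libraries compared, a block and leaving out each library. Animals are shared across treatments by their codes. Deviations of the same animal in 2 treatments correlated at 0.0036 to 0.24 over 18 pairs (median 0.17), and the animal, as the labels give it, was the block for responses. Replicate number was the block between genotypes.

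The members and lists were chosen with earlier results of these data known. All members were named. For each list and comparison, the called genes ranking first by adjusted p (6 at most) were picked for naming, with Arntl, Dbp and the 4 REV-ERB genes. Not every picked result is printed, so a treatment or genotype left out for a gene does not mean that it was unchanged there. Nfil3 with IFN-gamma between genotypes was added after its values were seen. The authors' own comparison columns were not used.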

Additional observations from a re-analysis of the deposited data

Results flagged for a closer look

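The response to IFN-gamma, as KO minus WT on the log2 scale, differed between genotypes by limma's test for 2 of the 10 clock genes, 6 of 29 other clock genes, 2 of 11 output genes and 0 of 4 REV-ERB-repressed genes, where 9.15% of all genes tested (1307 of 14288) differed. The lists were chosen with earlier results of these data known. That test did not pair the libraries of an animal. With the animal as a block Per1 (adjusted p = 0.00572) and Mmp9 (adjusted p = 0.0459) passed too. Nr1d2 differed by 0.6626 (adjusted p = 0.00423), with a fall in WT cells and no called change in KO cells. Tef differed by 0.706 (adjusted p = 0.00313), with a larger fall in WT cells.

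Among the other clock genes, Cipc differed by 0.8611 (adjusted p = 0.000272) and Bhlhe41 by 1.695 (adjusted p = 0.000615). Nono differed by -0.3553 (adjusted p = 0.0109) and Nfil3 by -1.309 (adjusted p = 0.0149). Fbxw11 differed by -0.3908 (adjusted p = 0.0269), a call lost in 7 of the fits that left out a library (adjusted p = 0.0504 to 0.0871). Timeless differed by -0.7582 (adjusted p = 0.0362), a call lost in 9 of them (adjusted p = 0.0673 to 0.101). Of the output genes, Por differed by 0.5161 (adjusted p = 0.0113). Usp2 differed by 1.161 (adjusted p = 0.0483), a call lost in 10 of them (adjusted p = 0.056 to 0.125) and with no filter (adjusted p = 0.0666). In these IFN-gamma libraries 4 of 9 stromal markers tested were called higher in KO cells, where 27.9% of all genes were called in either direction. The neutrophil marker sum was 29.4 to 63.5 in KO against 0.982 to 4.72 in WT cells. It came from 3 of the 7 markers listed, since S100a9, Ly6g, Mpo and Elane were at 0 or not listed in the data, and 1 of the 7 was tested. The part of these markers in the differences was not tested.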

How the results depend on the processing

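Of the 90 results on the 10 genes (9 comparisons each), all kept their direction and side of the threshold with factors computed as in TMM, a pseudocount of 0.5 and a minimum mean of 50. So did 89 with a pseudocount of 5, 88 with no filter, 87 with edgeR, 85 with DESeq2, 86 with only the libraries compared and 87 with the replicate block. Of 660 fits that left out 1 library, 597 kept both, 23 lost a call, 6 gained a call and 34 changed sign. The number of the 10 genes called between genotypes went from 0 to 1 in untreated cells with only the libraries compared. Leaving out 1 library gave 3 (KO IFN-gamma replicate 1) to 5 calls with IFN-gamma and 0 to 1 (KO IL-4 replicate 2) with IL-4, and for the KO IL-4 response 3 (KO IL-4 replicate 1, KO untreated replicate 1 or 3) to 5. Without WT IL-4 replicate 2, limma also called the WT IL-4 response of Per1 (adjusted p = 0.0484) and Per2 (adjusted p = 0.028). For KO against WT with IFN-gamma and for the IL-4 response of each genotype, the shares over all genes in these fits are not given here. Changes in those counts therefore cannot be told from a shift over all genes.

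Over all genes tested, 283 calls in untreated cells became 608 with DESeq2, 971 with only the libraries compared and 124 to 209 with 1 library left out. With IL-4, 941 became 128 with only the libraries compared and 492 to 1014. The 1307 for the IFN-gamma response difference became 2073 with the animal block and 762 to 1249, and the 1 for the IL-4 response difference 3 (pseudocount 5), 2 (no filter), 21 (DESeq2), 12 (animal block) and 1 to 3. Which causes these shifts was not tested. With replicate number as a block between genotypes, which only share a number, the Per2 difference with IFN-gamma was called (-0.907, adjusted p = 0.043) and the Usp2 difference with IL-4 was not (0.88, adjusted p = 0.0526). Calls changed by the animal block stand beside their results, and it changed no other.

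Changes of sign were all in values not called. Ciart's IFN-gamma response difference was 0.0431 (pseudocount 5), 0.0273 (edgeR) and 0.0215 (DESeq2), and Clock's KO IL-4 response 0.00247 (edgeR) and 0.00778 (DESeq2). Ccl2 between genotypes was -0.0406 (edgeR) and -0.0401 (DESeq2) after IFN-gamma. After IL-4 it was -0.0165 (edgeR) and -0.0578 (DESeq2). Il6's IFN-gamma response difference was -0.104 (pseudocount 5). With 1 library left out, log2 values crossed 0 within these ranges. For the KO IL-4 response these were Per1 (-0.0724 to 0.049), Cry2 (-0.0649 to 0.129), Ciart (-0.0215 to 0.241) and Clock (-0.13 to 0.114). For KO against WT with IL-4 these were Per2 (-0.681 to 0.325), Per3 (-0.575 to 0.0763), Cry1 (-0.151 to 0.0699), Tef (-0.103 to 0.0512), Clock (-0.0549 to 0.189), Il6 (-0.428 to 1.36) and Ccl2 (-0.316 to 0.305). For the WT IL-4 response these were Per2 (-0.263 to 0.742). For the IL-4 response difference these were Per2 (-0.328 to 0.677), Per3 (-0.218 to 0.433), Arntl (-0.0467 to 0.127), Dbp (-0.0402 to 0.189) and Il6 (-0.107 to 1.68). For KO against WT with IFN-gamma these were Per3 (-0.278 to 0.0718), Arntl (-0.0148 to 0.087), Dbp (-0.497 to 0.0727), Il6 (-0.487 to 0.0283) and Ccl2 (-0.429 to 0.44). For KO against WT untreated these were Nr1d2 (-0.0834 to 0.0119) and Il6 (-0.535 to 0.00337). For the KO IFN-gamma response these were Nr1d2 (-0.00225 to 0.126). For the IFN-gamma response difference these were Ciart (-0.254 to 0.15), Ccl2 (-0.0354 to 0.833), Cx3cr1 (-0.703 to 0.169) and Il6 (-0.287 to 0.349). For the WT IFN-gamma response these were Arntl (-0.0261 to 0.0716). In the shallowest library, WT IL-4 replicate 2, Per2 had 24 reads and Ciart 7, which limits precision there.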
